A study of Homo sapiens with 12 samples.

Results

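SK-mel147, an established human melanoma cell line, was infected with lentiviruses that encode a short hairpin RNA, and transcript levels were read on Affymetrix arrays. The comparison described here sets the hairpin sh_83, which targets H2AZ1, against control hairpins that target no gene of interest. It rests on 6 of the 12 arrays of the study. They are 2 arrays of cells with sh_83, 2 with a scrambled hairpin and 2 with a hairpin against luciferase, an enzyme that human cells lack. In all 6, the cells had been infected with a hairpin lentivirus and were grown in DMEM with serum, and no uninfected cells were compared. Groups were read from the array titles, and all 18417 genes measured by a nameable probe set were followed. Of the H2AZ1 hairpins, sh_83 was taken because it has a measured fall of its target. The H2AZ2 hairpins sh_37 and sh_38, with 2 arrays each, entered the model to estimate the spread between arrays and served as a second comparison. The 2 arrays titled sh_84, another H2AZ1 hairpin, were left out of the main fit and entered only an alternative fit. Replicate 2 of them bears a different hairpin name in its sample description, so its identity is uncertain. The titles call the reagents siRNA, whereas the treatment protocol speaks of lentiviral shRNA, and the protocol was followed.

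H2A.Z is a variant of histone H2A that replaces it in a subset of nucleosomes, above all those flanking the start sites of genes and those at enhancers. It is placed there by the SRCAP and p400 remodelling complexes and is encoded by a pair of genes, H2AZ1 and H2AZ2, whose proteins differ in only a few residues. In melanoma, H2A.Z has been studied for its part in the expression of cell cycle genes, and the title of the study names proliferation and drug sensitivity as its interest. With a single H2AZ1 hairpin, loss of H2AZ1 cannot be told apart from other effects of that hairpin.

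Levels are given as log2 expression from RMA, so a difference of 1 is a doubling, and levels of different genes are not compared because probe sets differ in brightness. The column medians of the 6 arrays lay between 7.0 and 7.07. The labels do not state whether the arrays of a hairpin stem from separate infections, and the spread behind each p-value may therefore be technical. Among melanocyte lineage genes, the transcription factors SOX10 (mean of the 4 control arrays 10.62), PAX3 (8.74) and MITF (8.29) were read beside the pigment cell products PMEL (5.72), MLANA (5.09), TYR (4.84) and TYRP1 (4.76). Without a measure of background, absence cannot be read from the lower values. None of 10 markers of keratinocytes, 12 of fibroblasts, 12 of endothelium and 11 of leukocytes passed the test of sh_83 against the controls that is described below. Few genes passed it at all (0.0814% of all genes higher and 0.217% lower). It compares hairpins, so it cannot show whether such cells were present. Mean levels of 192 small nucleolar RNAs, a class of short nuclear RNA, lay between 6.73 and 7.03 in the scrambled arrays, between 7.10 and 7.18 in the luciferase arrays and between 6.83 and 6.93 with sh_83.

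The targeted transcript was strongly reduced. H2AZ1 stood at 12.30 and 12.17 in the scrambled arrays, at 12.12 and 12.38 in the luciferase arrays, and at 9.79 and 9.94 with sh_83. Both sh_83 arrays lay far below all controls, whose mean was 12.24 ± 0.12 (SD, n = 4). The log2 difference was -2.38 (SE 0.10, limma adjusted p = 9.68e-06), which leaves 19.3% of the control level, a 5.19-fold reduction. It was -2.37 against scrambled alone and -2.38 against luciferase alone. No other gene tested fell as far with sh_83. The hairpin was chosen for a measured fall of H2AZ1, so this fall is not independent of the choice. With the H2AZ2 hairpins, H2AZ1 stood within 0.21 of the controls (-0.21 with sh_37, -0.14 with sh_38).

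The sister gene H2AZ2 stood at 10.94 and 10.99 in the scrambled arrays, at 11.03 and 11.05 in the luciferase arrays, and at 10.98 and 10.89 with sh_83. The groups overlapped, and the difference of -0.07 (SE 0.08) did not pass (limma adjusted p = 0.805). H2AZ2 stood at -1.12 with sh_37 and -0.61 with sh_38 against the same controls. The other measured variants of H2A did not pass either: MACROH2A2 stood at -0.21 (SE 0.10), H2AX, the variant phosphorylated at DNA breaks, at -0.17 (SE 0.09), H2AJ at 0.05 (SE 0.19) and MACROH2A1 at -0.01 (SE 0.08). Of 28 measured subunits of the complexes that insert or remove H2A.Z, none was called, with a median difference of -0.10 beside 0.01 over all genes. Of all genes 0.0814% were called higher and 0.217% lower, so a list of this size would mostly hold no called gene. SRCAP, the catalytic subunit of an inserting complex, stood at -0.16 (SE 0.12), EP400 at 0.06 (SE 0.14) and ANP32E, a chaperone that takes H2A.Z off chromatin, at -0.02 (SE 0.13).

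**Figure D1:**
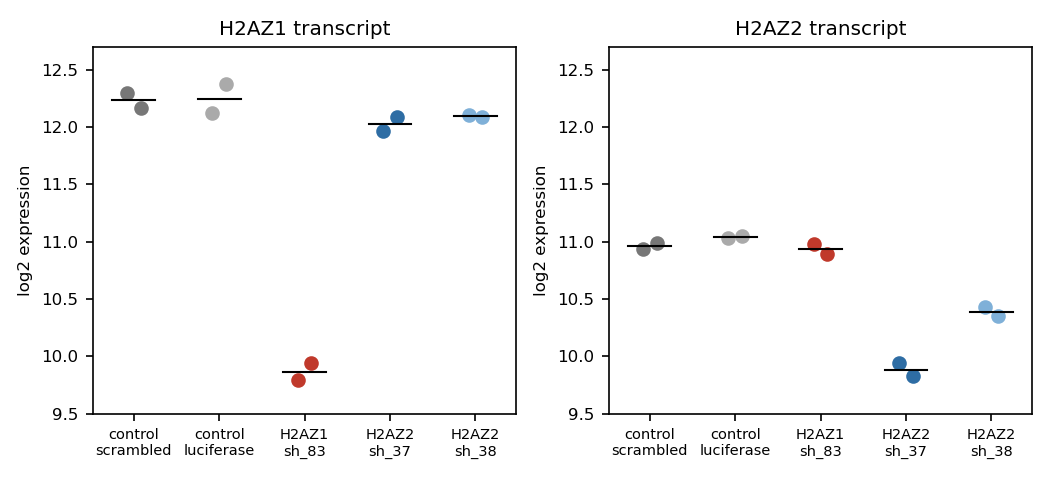
Log2 expression of H2AZ1 (left) and H2AZ2 (right) on each array (points) by hairpin, with the mean of the 2 arrays as a bar. The axes start at 9.5, not at 0. The sh_83 arrays lie at 9.79 and 9.94 for H2AZ1, below every other array. For H2AZ2 they lie at 10.98 and 10.89, the latter just below the lowest control at 10.94.

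Beyond its target, more genes fell than rose with sh_83. A gene was called where the limma test, adjusted by Benjamini-Hochberg over all 18417 genes, gave p under 0.05. Of all genes 15 rose (0.0814%) and 40 fell (0.217%), H2AZ1 included, and 54 of the 55 were protein coding. Falls ranged from -0.55 to -2.38 with a median of -0.77, and rises from 0.50 to 1.25 with a median of 0.77. Only 8 called genes changed by more than 1 on the log2 scale, 3 up and 5 down. Over all genes the 5th and 95th percentiles of the difference were -0.27 and 0.23. At an unadjusted p under 0.05 there were 1730 genes, 556 higher and 1174 lower. Scrambled against luciferase, the same test called 0 genes and gave 1295 at an unadjusted p under 0.05. That contrast sets 2 arrays against 2, not against 4, and is less precise than the one of sh_83. With a variance that follows the level (trend and robust limma) 2 genes were called between the control hairpins, and 194 with sh_83.

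The sh_83 arrays lay wholly above the 4 controls for 1267 genes (6.88%) and wholly below for 2005 (10.9%). All 55 called genes were in these sets, and it follows that all 55 differed in the same direction from scrambled and from luciferase alone. The 55 were called on these same arrays, so neither count is separate support for the calls. Of the 55, 29 were also called against scrambled alone, 42 against luciferase alone and 24 against each. Among genes described below without these tests, FABP6, TLE4, TMPPE and PRRC2C passed against neither control hairpin alone. Against scrambled alone, NAT2, CLGN, ADGRL3, STRADB, PKP4, TCTN1, DENND6A, CEMIP2, GAS7, ZNF385A, PINK1-AS, HLA-DQA1, MGLL and PLXNA2 did not pass. PCDH17 and SPP1 did not pass against luciferase alone. The calls depended on single arrays: 6 were made without replicate 1 of sh_83, 1 (H2AZ1) without its replicate 2, and 25 without replicate 2 of luciferase. When the 4 controls were taken as a single group 19 genes were called, and 17 with the hairpin as a random block. Both of these models count the spread between control hairpins, which the p-values of the main test leave out.

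**Figure D2:**
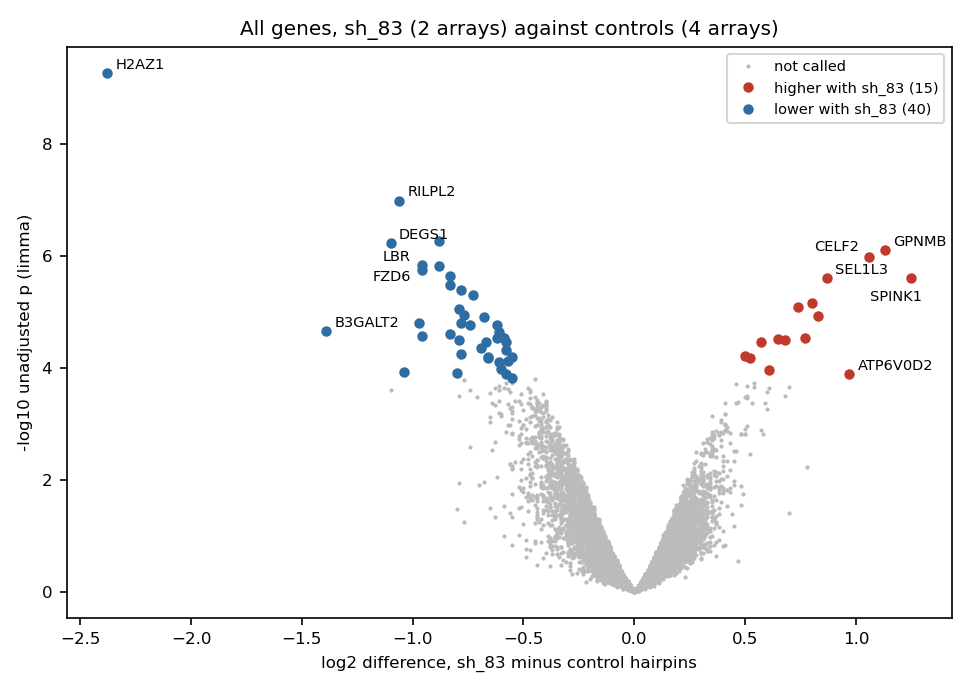
Each point is a gene, placed by its log2 difference (sh_83 minus the control hairpins) and by -log10 of the unadjusted limma p; called genes are coloured by direction. Falls outnumber rises, 40 to 15, and H2AZ1 at -2.38 stands alone at the upper left.

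The promoters of 4 called genes are shown because H2A.Z flanks start sites and because these genes stand for the main results below: the largest rises (SPINK1, GPNMB), the fall with the lowest p after H2AZ1 (RILPL2) and a called partner of the E2F factors (TFDP1). Each is RefSeq sequence of build GRCh38.p14, 300 bases on the gene's strand from 250 bases before to 50 after the annotated start. The SPINK1 promoter lies at chr5:147831622-147831921 on the minus strand, GPNMB at chr7:23246525-23246824 on the plus strand, RILPL2 at chr12:123436635-123436934 on the minus strand and TFDP1 at chr13:113584503-113584802 on the plus strand. Capitals mark matches to motifs searched on both strands: the E-box, spelled CACGTG, and the M-box of MITF and its relatives, spelled CATGTG; the GC box of the Sp family, spelled GGGCGG, and the CCAAT box that the factor NF-Y binds; the E2F-like sites TTTGGCGC and TTTCGCGC; and the TATA box, searched as TATAAA. No 2 of these motifs overlapped in the promoters shown.
SPINK1: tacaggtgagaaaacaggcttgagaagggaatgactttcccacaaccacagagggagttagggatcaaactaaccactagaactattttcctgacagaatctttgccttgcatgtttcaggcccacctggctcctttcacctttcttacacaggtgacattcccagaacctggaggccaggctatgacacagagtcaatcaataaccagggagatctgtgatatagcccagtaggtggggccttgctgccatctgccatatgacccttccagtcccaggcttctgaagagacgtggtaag
GPNMB: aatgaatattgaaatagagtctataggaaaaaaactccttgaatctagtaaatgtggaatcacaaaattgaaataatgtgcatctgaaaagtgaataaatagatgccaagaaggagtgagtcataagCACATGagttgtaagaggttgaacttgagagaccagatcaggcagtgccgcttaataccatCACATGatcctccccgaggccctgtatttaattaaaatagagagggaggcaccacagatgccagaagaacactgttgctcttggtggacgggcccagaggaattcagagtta
RILPL2: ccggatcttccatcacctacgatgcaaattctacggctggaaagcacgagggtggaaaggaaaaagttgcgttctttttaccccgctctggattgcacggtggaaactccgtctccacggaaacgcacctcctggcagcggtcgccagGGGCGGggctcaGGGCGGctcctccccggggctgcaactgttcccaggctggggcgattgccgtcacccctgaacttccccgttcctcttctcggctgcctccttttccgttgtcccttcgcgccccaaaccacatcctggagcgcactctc
TFDP1: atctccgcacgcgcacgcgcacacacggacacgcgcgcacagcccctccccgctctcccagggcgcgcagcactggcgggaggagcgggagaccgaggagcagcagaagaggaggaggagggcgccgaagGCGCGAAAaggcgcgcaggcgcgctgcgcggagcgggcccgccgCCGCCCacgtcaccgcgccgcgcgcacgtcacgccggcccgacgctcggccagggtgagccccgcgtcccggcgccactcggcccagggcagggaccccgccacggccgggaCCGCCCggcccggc
Of the promoters shown, those of the rises hold 1 CpG in SPINK1 and 3 in GPNMB, and those of the falls hold 23 in RILPL2 and 52 in TFDP1. The median over 35116 RefSeq promoters is 14 CpG, and 3.96%, 18.2%, 64.2% and 99.2% of promoters have fewer than these 4. GPNMB holds 2 M-box matches, at -123 and -62 from the start, a motif present in 11.1% of promoters. RILPL2 holds 2 GC boxes (-102 and -90), which 45.0% of promoters have. TFDP1 holds 2 GC boxes (-76 and +37) and an E2F-like match at -120, found in 1.15%. SPINK1 holds no match to any of these motifs. A match describes letters only. Whether called genes as a set differ in promoter composition was not compared, since promoters were matched for 76.4% of called and 77.3% of tested genes, under the 80% required.

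Proteins of the nuclear envelope and of E2F control were among the genes that fell. LBR, the lamin B receptor that tethers heterochromatin to the inner nuclear membrane and also reduces sterols, stood at 9.85 and 10.00 with scrambled, 9.80 and 10.03 with luciferase, and 8.91 and 9.01 with sh_83. Both sh_83 arrays lay below all controls, and the difference was -0.96 (SE 0.09, limma adjusted p = 0.00344). BANF1, which bridges DNA to LEM-domain proteins of the envelope, read 12.17, 12.11, 12.03 and 12.13 in the controls and 11.31 and 11.58 with sh_83. Both arrays were below the controls (-0.67, SE 0.09, limma adjusted p = 0.0169), and its dimmer probe set differed by -0.32. BANF1 did not pass against luciferase alone (limma adjusted p = 0.0578), nor with the mean of its probe sets. The envelope genes EMD (-0.07) and LMNA (-0.10), chosen for comparison after their values were seen, did not pass.

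TFDP1 encodes the DNA-binding partner that E2F factors need to bind their sites. It read 12.02 and 11.81 with scrambled, 11.82 and 11.94 with luciferase, and 11.09 and 11.18 with sh_83. Both sh_83 arrays lay below all controls, at 58.8% of their level (-0.77, SE 0.09, limma adjusted p = 0.0106). The related TFDP2 stood at -0.17 (SE 0.08, limma adjusted p = 0.545) and E2F1 itself at -0.12 (SE 0.09, adjusted p = 0.727). DEPDC1B, which acts in the loss of adhesion at entry into mitosis, fell by 0.69. It passed against neither control hairpin alone (limma adjusted p = 0.0563 and 0.0587).

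Several enzymes of lipid and sugar metabolism were also among the falls. DEGS1, the desaturase that turns dihydroceramide into ceramide, stood at 10.31 and 10.44 with scrambled, 10.51 and 10.63 with luciferase, and 9.44 and 9.30 with sh_83. Its groups did not overlap, and 46.6% of the control level remained (-1.10, SE 0.10, limma adjusted p = 0.0027). It was the only called gene of 32 measured in sphingolipid synthesis and turnover, where the median was 0.01 and its paralog DEGS2 stood at 0.27. MBTPS1, a Golgi protease that activates the sterol sensor SREBP and the stress sensor ATF6, fell by 0.61 (SE 0.08), while none of 18 cholesterol synthesis genes was called (median -0.07). With 0.217% of all genes called lower, a list of this size would mostly hold no called fall. B3GALT2, a galactosyltransferase, had the largest fall after H2AZ1. It read 6.58 and 6.14 with scrambled, 6.87 and 7.10 with luciferase, and 5.52 and 5.04 with sh_83. The difference was -1.39 (SE 0.18, limma adjusted p = 0.0156), but against scrambled alone it did not pass (adjusted p = 0.119). The other 24 measured transferases of galactose and N-acetylglucosamine were not called. DCAKD, a protein with a dephospho-CoA kinase domain, fell by 0.79, NAT2, which acetylates arylamines, by 0.78 and FABP6, a bile acid carrier, by 0.66.

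RILPL2, which binds Rab GTPases of vesicle and ciliary traffic, had the lowest p of the falls after H2AZ1. It stood at 9.04 and 9.10 with scrambled, 9.04 and 9.12 with luciferase, and 7.99 and 8.03 with sh_83. The 4 controls lay close together and both sh_83 arrays well below them (-1.06, SE 0.08, limma adjusted p = 0.00093). DENND6A, an activator of a Rab GTPase, fell by 0.55 and TCTN1, of the ciliary transition zone, by 0.62. SLC71A2 (older symbol MFSD14B), a membrane transporter of the major facilitator superfamily, read 11.09, 11.10, 10.95 and 11.16 in the controls and 10.27 and 10.33 with sh_83. Its groups did not overlap (-0.78, SE 0.08, limma adjusted p = 0.00534). SLC35F1, of a family of nucleotide sugar carriers, fell by 0.83.

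The next genes encode receptors, adhesion molecules and channels of the cell surface, a class that also has members among the rises (CD82, PLXNA2, ILDR2). FZD6, a Frizzled receptor for Wnt ligands, read 9.23 and 9.07 with scrambled, 9.19 and 9.35 with luciferase, and 8.22 and 8.27 with sh_83. Both sh_83 arrays lay below every control (-0.96, SE 0.10, limma adjusted p = 0.00365). ADGRL3, an adhesion receptor of the latrophilin family, fell by 0.83, GRPR, the receptor for gastrin-releasing peptide, by 0.74, the tetraspanin TSPAN6 by 0.78 and the protocadherin PCDH17 by 0.59. CD200, a surface ligand read by myeloid cells, stood at 8.17 and 8.12 with scrambled, 8.69 and 8.68 with luciferase, and 7.63 and 7.59 with sh_83. The control hairpins differ from each other here, and the fall of 0.80 (limma adjusted p = 0.044) did not pass against scrambled alone (adjusted p = 0.378). GJA5, a connexin of gap junctions, read 7.41, 7.29, 7.04 and 7.76 in the controls and 6.33 on both sh_83 arrays (-1.04, SE 0.17, limma adjusted p = 0.0426); it passed against neither control hairpin alone (adjusted p = 0.109 and 0.0739). KCNG1, a modifier subunit of voltage-gated potassium channels, fell by 0.73, and its dimmer probe set differed by -0.36. PKP4, a plakophilin of cell junctions, fell by 0.62, and CEMIP2, a surface hyaluronidase, by 0.55.

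HLA-DQA1, a chain of an MHC class II molecule that presents peptides, stood at 8.65 and 8.56 with scrambled, 8.85 and 8.91 with luciferase, and 7.98 and 7.58 with sh_83. The sh_83 arrays were the lowest of the 6 and lay further apart than the arrays of either control (-0.97, SE 0.12, limma adjusted p = 0.0126). Of 13 measured antigen presentation genes it alone was called, beside 0.217% of all genes called lower. Other class II chains and helpers did not pass: HLA-DPB1 stood at -0.55 (limma adjusted p = 0.0996), HLA-DPA1 at -0.42 (0.157), HLA-DMB at -0.40 (0.337) and HLA-DMA at -0.27 (0.412), while the class I light chain B2M stood at 0.26 (0.378). The median of the list was -0.01 against scrambled alone and -0.24 against luciferase alone.

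Regulators of transcription among the falls were RARB, a retinoic acid receptor (-0.66, SE 0.10), TLE4, a Groucho corepressor (-0.61, SE 0.09), and ZNF385A, a zinc finger protein (-0.58, SE 0.08). RARB read 10.01 and 10.04 with scrambled, 10.49 and 10.45 with luciferase, and 9.74 and 9.44 with sh_83, and did not pass against scrambled alone (limma adjusted p = 0.316). RNF182, a ubiquitin ligase, fell by 0.88 with arrays at 8.60 and 8.58, against 9.39 to 9.56 in the controls (limma adjusted p = 0.0027). CLGN, a chaperone of the endoplasmic reticulum, fell by 0.96, DMBT1, a secreted scavenger receptor protein, by 0.88, and the kallikrein protease KLK6 by 0.83. LCMT2, which modifies transfer RNA, fell by 0.68 and STRADB, a pseudokinase partner of the kinase LKB1, by 0.79, the latter on both of its probe sets (-0.79 and -0.80). The remaining falls were TMPPE (-0.60), PRRC2C (-0.58), GAS7 (-0.57) and PINK1-AS (-0.58), an antisense RNA of the mitochondrial kinase gene PINK1. PINK1 stood at 0.14 (SE 0.08, limma adjusted p = 0.665). TMPPE overlaps GLB1, which stood at 0.11, and whether probe sets of overlapping genes share signal was not tested.

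**Figure D3:**
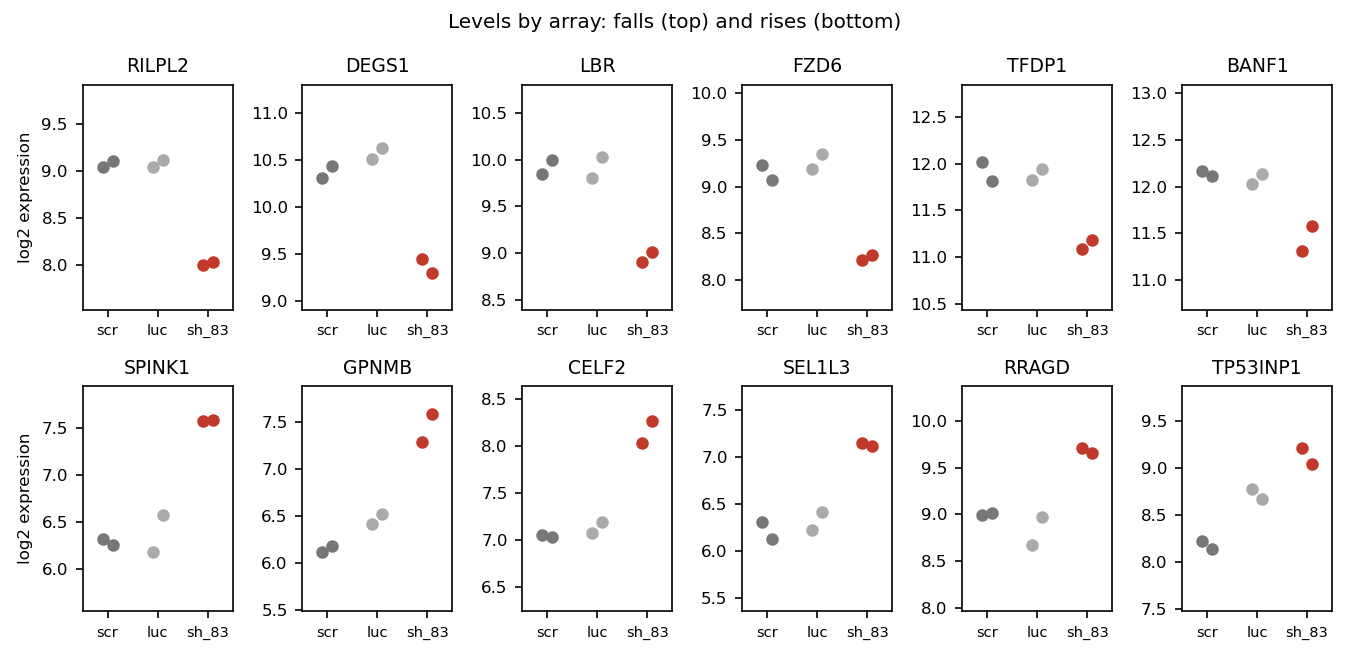
Log2 expression on each array for 6 genes that fell (top) and 6 that rose (bottom) with sh_83; scr is scrambled, luc is luciferase, each point is an array, and each panel has its own axis, of equal span, not starting at 0. In every panel the sh_83 points lie outside the range of the 4 controls, and for TP53INP1 the scrambled and luciferase points also lie apart.

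The rises included secreted proteins and genes of the lysosome. SPINK1, a secreted trypsin inhibitor, stood at 6.32 and 6.26 with scrambled, 6.18 and 6.58 with luciferase, and 7.58 and 7.59 with sh_83. The sh_83 arrays were nearly equal and lay above every control (1.25, SE 0.13, limma adjusted p = 0.00382), a 2.38-fold rise. SPP1, the matrix phosphoprotein osteopontin, rose by 0.57 (SE 0.08), with arrays at 10.36 and 10.35 against 9.69 to 9.90 in the controls. CCN3, a matricellular protein, rose by 0.61 (SE 0.10), passing against neither control hairpin alone (limma adjusted p = 0.0563 and 0.119). The carboxypeptidase CPA4 read 8.03 on both scrambled arrays, 8.41 and 8.47 with luciferase, and 8.75 and 8.71 with sh_83. Luciferase lay between the others, and the rise of 0.50 (limma adjusted p = 0.0262) did not pass against it alone (adjusted p = 0.248). HTN1, a histatin of saliva, read 4.62, 4.63, 4.64 and 4.85 in the controls and 5.41 and 5.62 with sh_83 (0.83, SE 0.10, limma adjusted p = 0.0106).

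GPNMB, a transmembrane glycoprotein of melanosomes and lysosomes, stood at 6.12 and 6.18 with scrambled, 6.42 and 6.52 with luciferase, and 7.29 and 7.59 with sh_83. Both sh_83 arrays were above all controls, at 219.0% of their level (1.13, SE 0.10, limma adjusted p = 0.00289). ATP6V0D2, a subunit of the proton pump that acidifies lysosomes, read 5.30, 4.75, 5.39 and 5.45 in the controls and 6.06 and 6.32 with sh_83. Replicate 2 of scrambled was the lowest control, and the rise of 0.97 (SE 0.16, limma adjusted p = 0.0443) passed against neither control hairpin alone (adjusted p = 0.0516 and 0.149). RRAGD, a Rag GTPase that recruits mTORC1 to the lysosome, read 8.99 and 9.02 with scrambled, 8.67 and 8.97 with luciferase, and 9.71 and 9.66 with sh_83, without overlap (0.77, SE 0.11, limma adjusted p = 0.0165). Its rise did not pass against scrambled alone (limma adjusted p = 0.0826). These 3 were the called genes of 35 in the list of lysosomal genes and targets of the MiT/TFE factors, beside 0.0814% of all genes called higher. The median of the list was 0.11, and 27 members stood above 0 and 8 below, beside 53.4% of all genes above 0. The list median was 0.12 on replicate 1 of sh_83 and 0.06 on replicate 2, and the control arrays ranged from -0.05 to 0.07, so replicate 2 lay within their range. The partner GTPase RRAGC stood at 0.42 (adjusted p = 0.127) and the lysosomal membrane protein LAMP1 at 0.08, and the factors themselves differed little, MITF by 0.06, TFEB by 0.11 and TFE3 by 0.05, none of them called.

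CELF2, an RNA-binding regulator of splicing, stood at 7.05 and 7.03 with scrambled, 7.07 and 7.19 with luciferase, and 8.03 and 8.26 with sh_83. The 4 controls lay close together and the sh_83 arrays above them all, at a 2.09-fold level (1.06, SE 0.10, limma adjusted p = 0.00318). TP53INP1, a p53 target that acts in autophagy and stress-induced death, read 8.22 and 8.13 with scrambled, 8.77 and 8.67 with luciferase, and 9.21 and 9.04 with sh_83. Its rise of 0.68 (limma adjusted p = 0.0165) held against scrambled alone (adjusted p = 0.012) and not against luciferase alone (adjusted p = 0.205). At the cell surface, the tetraspanin CD82 rose by 0.74 (SE 0.09), the semaphorin receptor PLXNA2 by 0.65 (SE 0.09) and ILDR2, an immunoglobulin-like receptor, by 0.80 (SE 0.09). SEL1L3, a membrane protein of the SEL1L family, read 6.31, 6.13, 6.22 and 6.42 in the controls and 7.15 and 7.12 with sh_83 (0.87, SE 0.09). MGLL, a lipase that hydrolyses monoacylglycerols, rose by 0.52 (SE 0.08).

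The H2AZ2 hairpins give a second comparison, which asks whether a gene called with sh_83 behaved otherwise when the sister gene was targeted. Differences of sh_83, sh_37 and sh_38 from the controls share those 4 control arrays, so their values are set side by side, and sh_83 was also tested directly against the mean of sh_37 and sh_38. Over all genes 742 differed in that test (4.03%), 330 higher and 412 lower with sh_83. Of the 55 called genes 42 differed, among them H2AZ1. The 55 were called on the same sh_83 arrays that this test uses. The share that differed, and its split into falls and rises below, is therefore not independent of the calls. The count over all genes rests on few arrays: it was 90 or 77 without replicate 1 or 2 of sh_83, 321 or 343 without replicate 1 or 2 of sh_37, 359 against sh_38 alone, 1175 against sh_37 alone and 93 with the hairpin as a random block.

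Among the falls, 32 of 40 were lower with sh_83 than with the H2AZ2 hairpins. LBR stood at 0.03 with sh_37 and -0.05 with sh_38, and the direct difference was -0.95 (SE 0.09, limma adjusted p = 0.000857). RILPL2 stood at -0.12 and 0.14 (direct difference -1.07, SE 0.08), DEGS1 at -0.11 and -0.19 (-0.95, SE 0.10), FZD6 at 0.09 and 0.06 (-1.03, SE 0.10), TFDP1 at -0.16 and -0.03 (-0.67, SE 0.09) and BANF1 at -0.14 and -0.02 (-0.59, SE 0.09). Some stood on the other side of the controls with H2AZ2 hairpins: NAT2 at 1.94 with sh_37 and 0.70 with sh_38 (direct difference -2.10, SE 0.12) and FABP6 at 1.06 and 0.53 (-1.45, SE 0.10). ADGRL3 and SLC35F1 stood above the controls with sh_37 (0.74 and 0.81) and not with sh_38 (-0.01 and -0.64). CEMIP2 was lower still with H2AZ2 hairpins, at -1.53 and -1.16, and the direct difference was 0.79 (SE 0.08, limma adjusted p = 0.00118).

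Another 7 falls did not differ from the H2AZ2 hairpins by this test. GJA5 stood at -1.33 with sh_37 and -1.17 with sh_38 (direct difference 0.21, SE 0.17, limma adjusted p = 0.708), DMBT1 at -1.09 and -0.91 (0.12, SE 0.09), CD200 at -0.77 and -1.2 (0.18, SE 0.13) and HLA-DQA1 at -0.77 and -0.58 (-0.29, SE 0.12). LCMT2, GAS7 and DEPDC1B gave direct differences of -0.19, -0.18 and -0.36. A p that misses the threshold does not show equal levels.

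Of the 15 rises, 7 were higher with sh_83 than with the H2AZ2 hairpins: CELF2 (direct difference 0.98, SE 0.10, limma adjusted p = 0.00098), SPP1 (1.12, SE 0.08), MGLL (1.00, SE 0.08), PLXNA2 (0.72, SE 0.09), RRAGD (0.62, SE 0.11), HTN1 (0.52, SE 0.10) and CD82 (0.48, SE 0.09). SPP1 stood at -0.19 with sh_37 and -0.91 with sh_38, and CELF2 at -0.04 and 0.20. CPA4 and TP53INP1 were lower with sh_83 than with the H2AZ2 hairpins, by -1.11 (SE 0.07) and -0.71 (SE 0.09); CPA4 stood at 2.14 and 1.09 and TP53INP1 at 1.66 and 1.12. The other 6 did not differ by the test. Their values varied between the H2AZ2 hairpins, with GPNMB at 1.54 and 0.37, SPINK1 at 0.38 and 1.48, SEL1L3 at 1.51 and 0.58, ATP6V0D2 at 0.25 and 1.03, ILDR2 at 0.82 and 0.06 and CCN3 at 0.87 and 0.75.

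**Figure D4:**
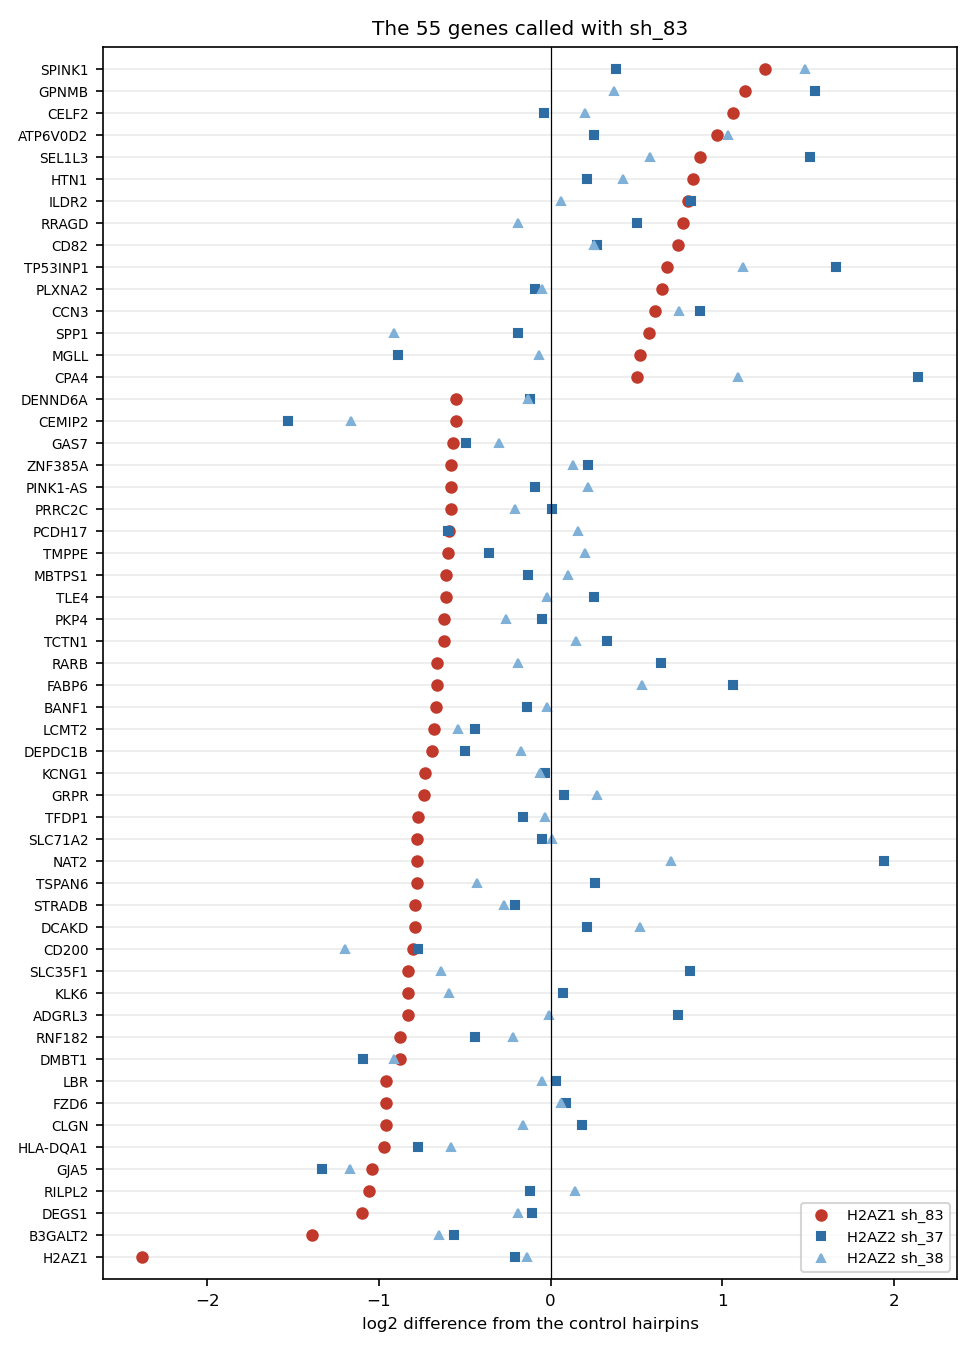
Log2 difference from the 4 control arrays for the 55 genes called with sh_83 (red circles, which fix the choice and order of genes), beside sh_37 (blue squares) and sh_38 (light blue triangles). Each mark is the mean of 2 arrays minus the same controls. LBR, FZD6 and RILPL2 lie near 0 with both H2AZ2 hairpins, whereas GJA5, DMBT1 and CD200 lie below 0 with all of the hairpins shown.

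In the lists of proliferation genes, the interest named in the study's title, most members had values below 0 with sh_83 and none was called. With 0.217% of all genes called lower, lists of this size would mostly hold no called fall. Of 27 genes that E2F factors activate at the G1/S transition 26 were below 0, with a median of -0.13 beside 0.01 over all genes, of which 53.4% were above 0. E2F8, a repressive E2F factor, stood at -0.64 (SE 0.12, limma adjusted p = 0.0749) and CDC6, which loads the replicative helicase, at -0.56 (SE 0.16, adjusted p = 0.23). The median of the list was -0.20 on replicate 1 of sh_83 and -0.07 on replicate 2, and the 4 control arrays ranged from -0.11 to 0.07 about their own mean. Only replicate 1 lay outside that range. Of 39 DNA replication genes 36 were below 0 (median -0.10), with GINS1 of the helicase complex at -0.42 (limma adjusted p = 0.101) and the primase PRIM1 at -0.30 (adjusted p = 0.416). Its medians were -0.15 and -0.09 on the sh_83 arrays and -0.08 to 0.06 on the controls. Of 47 genes of G2 and mitosis 36 were below 0 (median -0.07), with the spindle factor TPX2 at -0.44 (limma adjusted p = 0.0749) and the kinetochore protein SPC25 at -0.36 (adjusted p = 0.594). The medians of that list were -0.12 and -0.02 on the sh_83 arrays and -0.1 to 0.08 on the controls. Replicate 2 lay within the control range.

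The 31 replication-dependent histone genes, whose messages are made in S phase, had a median of -0.19, with -0.30 and -0.11 on the sh_83 arrays and -0.14 to 0.14 on the controls. For 19 genes of homologous recombination and Fanconi repair the median was -0.21, with -0.28 and -0.12 on the sh_83 arrays and -0.15 to 0.13 on the controls. In both lists replicate 2 lay within the range of the control arrays, and no member was called, beside 0.217% of all genes called lower. With sh_37 and sh_38, read against the same controls, the medians were -0.66 and -0.42 for E2F targets, -0.48 and -0.44 for replication, and -0.51 and -0.29 for G2 and mitosis. The direct test against the H2AZ2 hairpins was passed by 10 E2F targets, 14 replication genes and 12 of G2 and mitosis, beside 4.03% of all genes, and the median of sh_83 minus the H2AZ2 hairpins was 0.32, 0.32 and 0.33. E2F1 differed directly by 0.50 (limma adjusted p = 0.018).

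Of 22 p53 target genes 17 stood above 0 with a median of 0.09, beside 53.4% of all genes above 0. TP53INP1 alone was called, beside 0.0814% of all genes called higher. The median was 0.11 and 0.12 on the sh_83 arrays, and the control arrays ranged from -0.10 to 0.11. The cyclin-dependent kinase inhibitor CDKN1A stood at 0.05 (SE 0.09) with sh_83 and at 0.66 and 0.51 with sh_37 and sh_38, a direct difference of -0.53 (limma adjusted p = 0.0108). MDM2, the ligase that degrades p53, stood at 0.32 (SE 0.09, adjusted p = 0.225). GADD45A stood at -0.33 (adjusted p = 0.348), and differed directly from the H2AZ2 hairpins by -0.68 (limma adjusted p = 0.0101). List medians with sh_37 and sh_38 were 0.36 and 0.49.

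Among 21 genes that report MAPK signalling, which is often active in melanoma, none was called (median -0.06). DUSP6, a phosphatase of ERK, stood at -0.45 (SE 0.13, limma adjusted p = 0.24) and MYC at -0.42 (SE 0.10, adjusted p = 0.132). Direct differences from the H2AZ2 hairpins passed for 10 of the 21, beside 4.03% of all genes. Read against the controls, sh_37 gave these genes a median of -0.41 and sh_38 a median of -0.18. Of 21 melanocyte lineage genes none was called (median 0.06), with SOX10 at -0.33 (limma adjusted p = 0.24) and S100B at -0.25 (adjusted p = 0.47). The 34 interferon response genes had a median of 0.00; IFI6 stood at -0.37 (adjusted p = 0.169) and the RNA sensor RIGI at 0.26 (adjusted p = 0.604). In all 29 lists, with 663 of 714 entries measured, 7 had a called member and 22 had none. Of all genes 0.0814% were called higher and 0.217% lower, so most lists of such sizes would hold no called gene. The lists were chosen with earlier results of these data known, so the tally is not independent of the calls.

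The lists without a called member and not yet described had medians between -0.10 and 0.12. Inflammatory cytokines and chemokines stood at -0.10 (21 genes), the extracellular matrix and its proteases at 0.10 (39 genes), hypoxia and glycolysis at -0.04 (25 genes), the unfolded protein and integrated stress response at 0.04 (25 genes), the BCL2 family of death regulators at 0.00 (15 genes), genes of dedifferentiated and invasive melanoma at -0.04 (27 genes), heat shock proteins at 0.08 (14 genes) and housekeeping genes at 0.03 (22 genes). The collagenase MMP8 had the widest value among uncalled members, -1.10 (SE 0.20, limma adjusted p = 0.0621). Connexins and pannexins had a median of 0.10 over 12 genes with GJA5 as the called member, beside 0.217% of all genes called lower. Medians of the keratinocyte, fibroblast, endothelial and leukocyte markers were 0.12, 0.08, 0.03 and 0.06. For fibroblast markers the sh_83 arrays stood at 0.08 and 0.12, beside an SD of 0.136 among the control arrays.

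**Figure D5:**
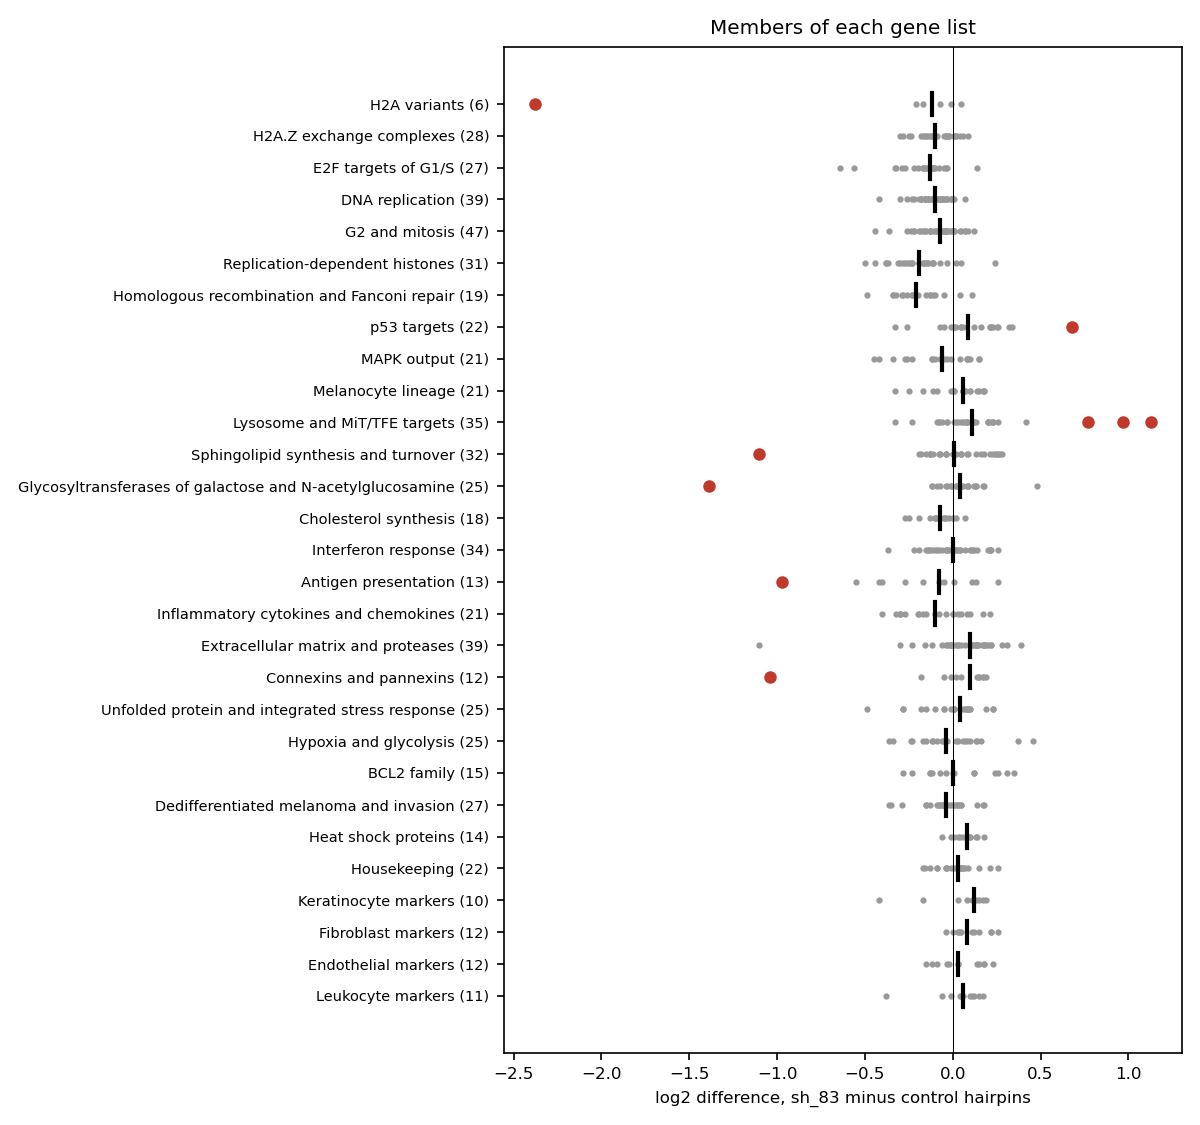
Log2 difference (sh_83 minus the control hairpins) of every measured member of the 29 gene lists, with the number measured in brackets. Large red points are called genes, small grey points are not called, and the black bar is the median of the list. The medians lie between -0.21 and 0.12, and called members are single points in 6 lists and 3 points in the lysosome list.

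Along the chromosomes, 0 pairs of neighbours were both called among 18386 genes placed in order. With only 55 of these called, 0 pairs would be likely whatever their arrangement, so the count cannot show whether called genes cluster. The 110 uncalled neighbours of called genes had a median difference of 0.03, and 12 of them (10.9%) had an unadjusted p under 0.05, beside 9.39% of all genes.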

How the data were processed

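Transcript levels of SK-mel147 cells were measured on Affymetrix arrays. The authors deposited log2 expression values per probe set. RMA is the tool that the submitters' processing notes name; its version is not given in the sources used here. The platform annotation pairs 19460 of 33297 probe sets with 1 symbol and 1754 with several; the other 12083 are not in it. Symbols were updated by Entrez ID through RefSeq (19429 matched), and for 769 genes with several probe sets the brightest over the arrays fitted was kept, giving 18417 genes. Groups follow the titles.

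Limma 3.58.1 (lmFit, eBayes) in R 4.3.3 was fitted to 10 arrays, with the 5 hairpins as groups and sh_84 left out. The contrast was sh_83 minus the mean of the scrambled and luciferase hairpins, two-sided, with Benjamini-Hochberg adjustment over all genes and a threshold of 0.05. The fit treats the arrays of a hairpin as independent replicates. Its SE and p rest on the spread between arrays of the same hairpin and leave out the spread between control hairpins. The H2AZ2 arrays add residual degrees of freedom, 5 in all. The number of arrays limits the precision. The procedure was tested on simulated data without differences between control hairpins, so that test does not bear on such differences. Genes named by rule were H2AZ1 and H2AZ2, the 15 rises and 15 falls of greatest size among called genes separated from the controls, called list members, and up to 2 uncalled members of certain lists. Other genes were named after their values were seen. The genes, lists and tests were chosen with earlier results of these data known. Alternatives changed the arrays, controls, block, probe set rule, filter, scaling and variance model. No scan dates or background values were used. Figures were drawn with matplotlib 3.10.9.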

Additional observations from a re-analysis of the deposited data

Results flagged for a closer look

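Among 43 named genes, the 4 control arrays were searched for a single array that stands apart by Dixon's criterion, and 3 genes had one. Chance alone gives about 1 such array in 20 genes. HTN1 stood at 4.85 on replicate 2 of luciferase and between 4.62 and 4.64 on the other controls. MYC stood at 9.48 on replicate 1 of scrambled and between 9.19 and 9.24 on the others. RRAGD stood at 8.67 on replicate 1 of luciferase and between 8.97 and 9.02 on the others. For HTN1 and RRAGD, both sh_83 arrays lay above every control, the array named here included.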

How the results depend on the processing

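Of 23 alternatives, 13 changed the model, the arrays fitted, the control, the filter or the scaling and 10 left out a single array. H2AZ1 was called in every one, with differences from -2.30 to -2.45. The 55 calls became 118 with the 6 hairpins including sh_84, whose replicate 2 is of uncertain identity. There were 33 with only the 6 arrays compared and 19 with the 4 controls as a single group. The hairpin as a random block (consensus correlation 0.117) gave 17. Scrambled alone as the control gave 32, and a variance trend with robust limma gave 194. With the mean small nucleolar RNA level as a covariate, chosen after seeing the data, there were 112, 52 higher and 60 lower. The replicate block gave 66 calls and lost TMPPE (adjusted p = 0.0583) and DENND6A (adjusted p = 0.059). The labels do not say what a replicate number stands for. By number, scrambled, sh_37 and sh_38 correlated with each other at 0.376 to 0.677, but luciferase correlated with scrambled at -0.469; only 5 of 10 hairpin pairs were over 0.1, so the numbers were not taken as pairs, and not every array correlated best with its own number. Leaving out an array gave 1 (without replicate 2 of sh_83) to 76 calls, with 6 without replicate 1 of sh_83 and 25 without replicate 2 of luciferase. Between sh_83 and the H2AZ2 hairpins the 742 genes became 93 with the random block, 1175 against sh_37 alone, 359 against sh_38 alone, 1220 with trend and robust, 1839 with the small nucleolar RNA covariate, 781 with the replicate block and 77 to 903 without single arrays. Between the control hairpins 2 genes were called with trend and robust. The cause of these shifts was not tested.

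Of the 55 genes, 11 stayed called in all 13 of the former alternatives. Among those that kept both sh_83 arrays, 10 stayed called in all: H2AZ1, DEGS1, RILPL2, FZD6, LBR, RNF182, SLC71A2, KCNG1, LCMT2 and CELF2. HTN1 was called in the 12 former alternatives that hold it, and is left out by the filter on the dimmest 25% of genes. That filter leaves out 5 called genes: HTN1, B3GALT2, CLGN, NAT2 and ATP6V0D2. Among 686 values of the 30 called genes named by rule, 529 stayed past the threshold, 157 kept their direction and missed it, and 0 turned. Signal over background is unknown, so what it limits cannot be stated.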
